A study of Mus musculus with 9 samples.

Results

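Podocyte genes were followed in mouse kidney by 8 members chosen by name, Nphs1, Podxl, Synpo, Wt1, Cdkn1c, Ptpro, Cd2ap and Plce1, out of 21935 genes counted. All 8 passed the filter on low counts and were among the 14069 genes tested. The kidneys came from 9 RNA-seq libraries in 3 groups of 3. The Gsdmd-/- group lacked gasdermin D, the pore-forming protein of pyroptosis, on a C57BL/6 background. PIL mice were wild-type C57BL/6 mice with pristane-induced lupus, given 1 intraperitoneal injection of 0.5 ml of pristane, an oil used to bring on lupus-like autoimmunity in mice. Saline mice were wild-type C57BL/6 mice given 0.5 ml of saline. All were labelled female, were injected at 4 weeks of age and had their kidneys taken 31 weeks after injection. For the Gsdmd-/- libraries the treatment label reads none, whereas the paper describes Gsdmd-/- mice given pristane, so pristane in this group rests on the paper. The treatment label of the saline group also reads none, while the treatment protocol gives saline. The labels do not tie libraries to single mice, so p-values measure the spread between these libraries, which may be technical.

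Podocytes are the epithelial cells that wrap the capillaries of the glomerulus with interlocking foot processes. Neighbouring foot processes are bridged by the slit diaphragm, a cell junction that is part of the filtration barrier, and their shape is held by an actin cytoskeleton. Mature podocytes are largely postmitotic, and loss of several of these genes in mice or humans causes proteinuria.

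Library totals ran from 13311063 to 16299328 counts. Gsdmd itself had 30, 27 and 24 counts in the Gsdmd-/- libraries, against 117, 337 and 142 in PIL libraries and 96, 155 and 65 in saline libraries. The Gsdmd-/- counts were below those of every other library, although the differences did not pass the threshold (log2 fold change -2.71 against PIL and -2.01 against saline, edgeR quasi-likelihood adjusted p = 0.127 and 0.0601). Summed over 4 Y-linked genes, all Gsdmd-/- and PIL libraries had 0 counts and the saline libraries stood apart with 1854, 1882 and 3077 counts, although all mice were labelled female. Both comparisons with saline therefore set libraries without Y-linked reads against libraries with them. Treatment there cannot be told apart from sex or whatever else accompanies these reads, which do not enter Gsdmd-/- against PIL. PIL replicates 1 and 2 stood apart in immune cell markers, whose summed level was 163 to 257 CPM (counts scaled to a common library size, with TMM factors for composition) in Gsdmd-/- libraries, 1015, 757 and 288 CPM in PIL replicates 1, 2 and 3, and 120 to 259 CPM in saline libraries. Perirenal fat markers summed to 2.51 to 59.9 CPM in 8 libraries and to 253 CPM in saline replicate 3.

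In PIL kidneys, 4 of the 8 podocyte genes were higher than in saline kidneys and none was lower. They were Cdkn1c (2.92-fold), Ptpro (1.99-fold), Synpo (1.76-fold) and Nphs1 (1.75-fold). Calls were made where edgeR's quasi-likelihood test gave a Benjamini-Hochberg adjusted p under 0.05, adjusted over the 14069 genes, and by this rule the share of all genes called in PIL kidneys was 4.48% for higher and 3.14% for lower. In Gsdmd-/- kidneys, 3 of the 8 were higher than in saline kidneys, Cdkn1c (2.74-fold), Nphs1 (2.21-fold) and Synpo (1.87-fold), and none was lower, beside 1.55% of all genes called higher and 1.46% lower. Between Gsdmd-/- and PIL kidneys none of the 8 was called, beside 0% of all genes, and none of the 8 had an unadjusted p under 0.05, beside 20.9% of all genes. That count depended on the analysis. Between Gsdmd-/- and PIL kidneys DESeq2 called none of the 8 and 878 of all genes, limma-voom with sample weights called 7 of the 8 (5 higher and 2 lower) and 6448 of all genes, and edgeR without PIL replicate 3 called 1 of the 8 and 3204 of all genes. In whole kidney, more podocytes and more RNA per podocyte cannot be told apart.

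Sequence upstream of the start site is shown for Nphs1, Ptpro and Cd2ap. Nphs1 and Ptpro were called higher in PIL than in saline kidneys, and Cd2ap was not. RefSeq promoter windows on GRCm38.p6 were found for 4 of the 8 members, Nphs1, Ptpro, Cd2ap and Plce1, and the 250 bases before each start were searched on both strands. The capitals in the Nphs1 and Cd2ap stretches mark a match to GNGTGGGNG on either strand, a GC-rich motif of the kind bound by WT1 and other zinc-finger factors. The capitals in the Ptpro window mark matches to the E-box CANNTG, the motif of basic helix-loop-helix factors such as TCF21.
Nphs1, chr7:30459821-30459849, plus strand: gagtacctgtGAGTGGGTGagagggaggt
Cd2ap, chr17:42876448-42876476, minus strand: tccaccccccCTCCCACCCccgcctgccg
Ptpro, chr6:137252049-137252298, plus strand: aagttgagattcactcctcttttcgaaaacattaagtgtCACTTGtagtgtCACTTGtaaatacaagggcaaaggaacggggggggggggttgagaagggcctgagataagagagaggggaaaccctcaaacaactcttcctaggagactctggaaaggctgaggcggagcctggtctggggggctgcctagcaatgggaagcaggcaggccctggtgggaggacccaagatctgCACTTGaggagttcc

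The match in Nphs1 began 227 bases before its RefSeq start and that in Cd2ap began 42 bases before. Both stretches lie inside the gene as GENCODE M21 draws it, which places the start farther upstream. Ptpro had 3 E-boxes, all reading CACTTG and beginning 211, 199 and 15 bases before the start. Cd2ap held 2 E-boxes, Plce1 held 1 and Nphs1 held none. The Ptpro and Plce1 windows held no match to GNGTGGGNG. Of 32851 windows of this length in the RefSeq table, 12.7% held GNGTGGGNG and 66.2% held CANNTG, so neither match sets these genes apart by itself. The forkhead motif GTAAACA and the homeodomain motif TAATTA, held by 3.17% and 4.84% of windows, were in none of the 4.

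The slit diaphragm itself is represented by Nphs1 and Cd2ap. Nphs1 (ENSMUSG00000006649, mm10 chr7:30458315-30487223, plus strand) encodes nephrin, the adhesion protein that spans the slit. It was at 42.4, 44.4 and 41.6 CPM in Gsdmd-/- libraries (replicates 1, 2 and 3, the order used throughout), 30.3, 30.4 and 41.5 CPM in PIL libraries and 17.2, 15.4 and 25.5 CPM in saline libraries. All 6 Gsdmd-/- and PIL libraries lay above all saline libraries, and every Gsdmd-/- library lay above every PIL library, with the closest pair at 41.6 CPM in Gsdmd-/- replicate 3 and 41.5 CPM in PIL replicate 3. The log2 fold change was 0.81 ± 0.20 (SE) in PIL against saline (edgeR quasi-likelihood adjusted p = 0.0422) and 1.14 ± 0.20 in Gsdmd-/- against saline (adjusted p = 0.0193). The difference between Gsdmd-/- and PIL was 0.33 (95% interval -0.11 to 0.77, edgeR adjusted p = 0.329).

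Cd2ap (ENSMUSG00000061665, chr17:42792951-42876665, minus strand) encodes the adaptor that links nephrin to the actin cytoskeleton, and unlike Nphs1 it is expressed in many cell types. Its level was 131, 136 and 125 CPM in Gsdmd-/- libraries, 107, 104 and 123 CPM in PIL libraries and 110, 116 and 137 CPM in saline libraries. Saline libraries overlapped both other groups, while the Gsdmd-/- libraries lay just above the PIL libraries. Cd2ap had the narrowest intervals of the 8 in all 3 comparisons, since its standard error was 0.12. The log2 fold change was -0.12 (95% interval -0.39 to 0.14) in PIL against saline, 0.11 (-0.15 to 0.38) in Gsdmd-/- against saline and 0.23 (-0.03 to 0.50) in Gsdmd-/- against PIL, with edgeR adjusted p of 0.527, 0.761 and 0.278. The highest of these bounds corresponds to a 1.41-fold difference.

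Podxl and Ptpro encode proteins of the apical membrane of the foot process. Podxl (ENSMUSG00000025608, chr6:31519488-31563981, minus strand) encodes podocalyxin, a strongly charged sialomucin that keeps foot processes apart and is also made by endothelial cells. It was at 306, 332 and 338 CPM in Gsdmd-/- libraries, 206, 258 and 319 CPM in PIL libraries and 173, 171 and 263 CPM in saline libraries. The Gsdmd-/- libraries were above every saline library, whereas PIL replicates 1 and 2 fell below saline replicate 3. Podxl passed in no comparison, with a log2 fold change of 0.69 (95% interval 0.22 to 1.15, edgeR adjusted p = 0.136) in Gsdmd-/- against saline and 0.37 (-0.09 to 0.83, adjusted p = 0.271) in PIL against saline.

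Ptpro (ENSMUSG00000030223, chr6:137252319-137463233, plus strand) encodes a receptor tyrosine phosphatase, also known as GLEPP1. It was at 22.2, 27.0 and 25.8 CPM in Gsdmd-/- libraries, 30.8, 29.5 and 29.3 CPM in PIL libraries and 12.3, 13 and 19.6 CPM in saline libraries. The 3 groups did not overlap, and PIL was the highest of them, an order that no other member with separated groups had. Ptpro rose by 0.99 ± 0.18 (SE, log2) in PIL against saline (edgeR quasi-likelihood adjusted p = 0.0149). The log2 fold change of 0.74 ± 0.18 in Gsdmd-/- against saline missed the threshold (edgeR adjusted p = 0.0660). The direct difference between Gsdmd-/- and PIL was -0.26 (95% interval -0.65 to 0.14, edgeR adjusted p = 0.385), so a call in PIL and none in Gsdmd-/- does not show that the groups differed.

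Synpo (ENSMUSG00000043079, chr18:60593973-60660142, minus strand) encodes synaptopodin, an actin-associated protein of the foot process. It was at 97.6, 102 and 109 CPM in Gsdmd-/- libraries, 86.6, 95.4 and 107 CPM in PIL libraries and 55.1, 41.3 and 68.2 CPM in saline libraries. Both the Gsdmd-/- and the PIL libraries were clear of the saline libraries and overlapped each other. The log2 fold change was 0.91 ± 0.17 in Gsdmd-/- against saline and 0.81 ± 0.17 in PIL against saline (SE, edgeR adjusted p = 0.0259 and 0.0258). The difference between Gsdmd-/- and PIL was 0.09 (95% interval -0.29 to 0.48), with an upper bound of 1.39-fold.

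Plce1 (ENSMUSG00000024998, chr19:38481109-38785030, plus strand) encodes phospholipase C epsilon, a signalling enzyme whose loss causes nephrotic syndrome in humans. It was the member with the fewest counts, 92 to 180 per library. Its level was 9.60, 11.8 and 12 CPM in Gsdmd-/- libraries, 6.39, 8.05 and 12.6 CPM in PIL libraries and 6.76, 7.54 and 10.2 CPM in saline libraries, and all 3 groups overlapped. No comparison passed. PIL replicate 3 decided its sign in PIL against saline, where the log2 fold change was 0.14 (95% interval -0.47 to 0.74) with all libraries and -0.19 without PIL replicate 3.

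The remaining members act in the nucleus. Wt1 (ENSMUSG00000016458, chr2:105126529-105173616, plus strand) encodes the zinc-finger factor that maintains podocyte gene expression. It was at 15.8, 16.8 and 17.1 CPM in Gsdmd-/- libraries, 8.63, 11.1 and 15.8 CPM in PIL libraries and 7.79, 9.11 and 11.1 CPM in saline libraries. The Gsdmd-/- libraries lay above all 6 others, with Gsdmd-/- replicate 1 and PIL replicate 3 nearly level at 15.8 CPM, while PIL and saline overlapped. The log2 fold change was 0.83 (95% interval 0.32 to 1.34) in Gsdmd-/- against saline, 0.34 (-0.18 to 0.85) in PIL against saline and 0.49 (-0.02 to 0.997) in Gsdmd-/- against PIL, with edgeR adjusted p of 0.105, 0.358 and 0.249. Without PIL replicate 3, Wt1 was 0.76 higher in Gsdmd-/- than in PIL kidneys on the log2 scale and passed (edgeR adjusted p = 0.0295).

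Cdkn1c (ENSMUSG00000037664, chr7:143458339-143461050, minus strand) encodes p57, an imprinted inhibitor of cyclin-dependent kinases that marks podocytes once they leave the cell cycle. It was at 23.6, 30.2 and 25.4 CPM in Gsdmd-/- libraries, 27.5, 35.1 and 21.7 CPM in PIL libraries and 10.2, 10.1 and 8.60 CPM in saline libraries. The lowest Gsdmd-/- and PIL libraries, at 23.6 and 21.7 CPM, were far above the highest saline library, at 10.2 CPM. Cdkn1c had the largest change of the 8 in both comparisons with saline, 1.55 ± 0.19 (SE, log2) in PIL (edgeR quasi-likelihood adjusted p = 0.00376) and 1.45 ± 0.19 in Gsdmd-/- (adjusted p = 0.00514). Gsdmd-/- and PIL overlapped, with a log2 difference of -0.09 (95% interval -0.50 to 0.32), which became 0.09 without PIL replicate 2.

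**Figure D1:**
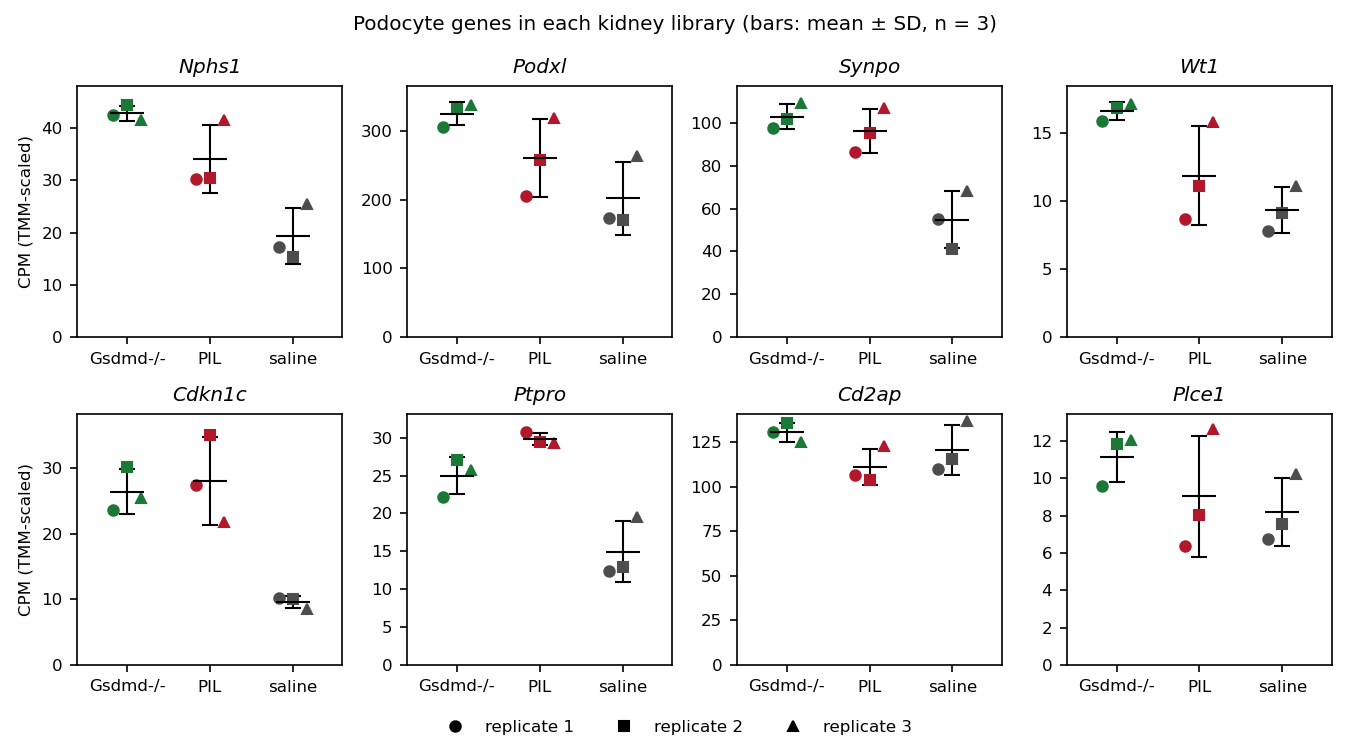
TMM-scaled CPM of the 8 podocyte genes (vertical axes, each starting at 0) in Gsdmd-/-, PIL and saline kidneys, with 1 point per library, replicates 1, 2 and 3 as circles, squares and triangles, and bars for the mean ± SD (n = 3). Nphs1, Synpo, Cdkn1c and Ptpro are higher in every PIL and Gsdmd-/- library than in any saline library, and Cd2ap and Plce1 overlap between saline and both other groups.

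Per unit of gene length the members spanned a wide range. FPKM, as deposited, divides counts by gene length and library size. The order between genes depends on the length used, from 2039 bases for Cdkn1c to 15998 bases for Plce1, and the transcripts present were not examined. In Gsdmd-/- kidneys Podxl was highest, at 58.2 ± 2.93 FPKM (SD, n = 3), followed by Cdkn1c at 12.7 ± 1.33, Synpo at 10.6 ± 0.695, Cd2ap at 8.09 ± 0.205, Nphs1 at 6.35 ± 0.0799, Ptpro at 3.65 ± 0.309, Wt1 at 2.63 ± 0.110 and Plce1 at 0.685 ± 0.0781 FPKM. No neighbours in this order overlapped. PIL kidneys had the same order, from Podxl at 49.8 ± 8.50 to Plce1 at 0.588 ± 0.181 FPKM, but there Cdkn1c overlapped Synpo and Nphs1 overlapped Ptpro. In saline kidneys Podxl was again highest at 35.5 ± 9.15 FPKM and Plce1 lowest at 0.492 ± 0.107 FPKM. Cdkn1c stood lower in the saline order, at 4.55 ± 0.444 FPKM, after Cd2ap at 7.34 ± 0.819 and Synpo at 5.54 ± 1.36 FPKM, although Cd2ap overlapped Synpo, Synpo overlapped Cdkn1c and Nphs1 overlapped Ptpro.

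Set against all genes, the members lay on the higher side in each comparison. The median log2 fold change of the 8 was 0.59 in PIL against saline, beside 0.01 over all genes tested, and 7 of the 8 were positive. It was 0.78 in Gsdmd-/- against saline, beside -0.01 over all genes, with all 8 positive, and 0.27 in Gsdmd-/- against PIL, beside -0.00 over all genes, with 6 positive. The comparisons share libraries and are therefore not independent of each other. Lists of other kidney cells were shifted too. For 13 proximal tubule markers the median was -0.39 in PIL and 0.11 in Gsdmd-/- against saline, and 0.48 in Gsdmd-/- against PIL, with all 13 positive. For 9 mesangial and pericyte markers it was 0.52, 0.16 and -0.59 in the same order. Counting members whose groups did not overlap, 4 were higher in PIL than in saline kidneys (13.4% of all genes were), 6 were higher in Gsdmd-/- than in saline kidneys (13.3%), and 3 were higher and 1 lower in Gsdmd-/- than in PIL kidneys (13.8% and 14.1%). The 3 were Nphs1, Wt1 and Cd2ap, and the 1 was Ptpro.

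**Figure D2:**
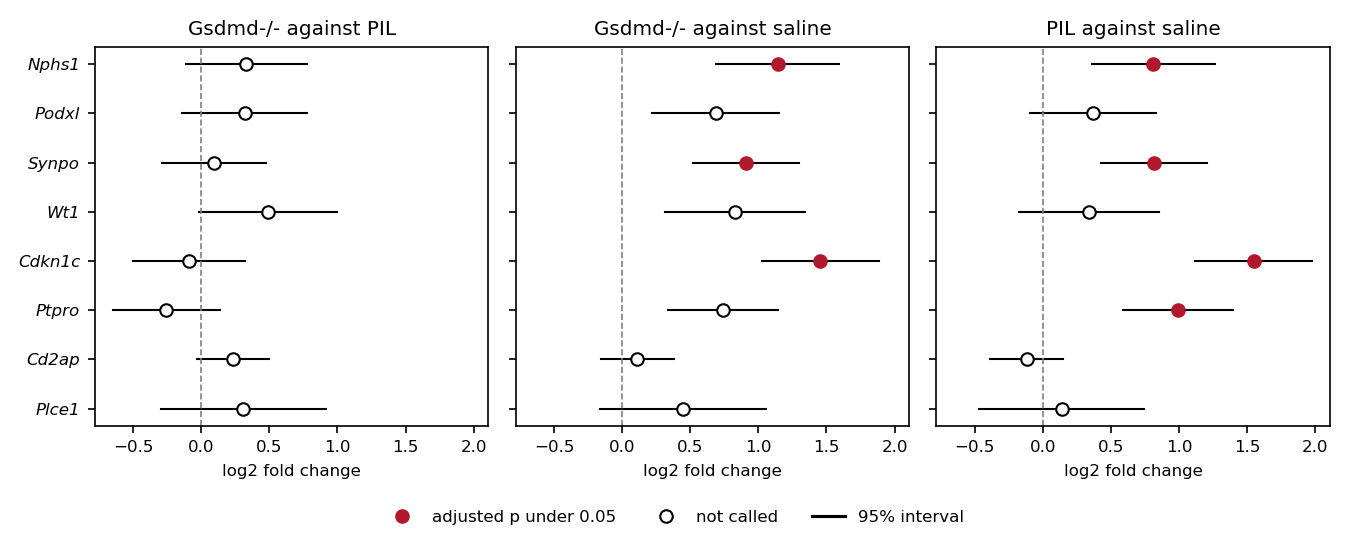
Log2 fold changes of the 8 podocyte genes (horizontal axis) in 3 comparisons, with points for the estimate, lines for the 95% interval and filled points for an adjusted p under 0.05 in edgeR's quasi-likelihood test. Cdkn1c lies farthest right in both comparisons with saline (1.45 and 1.55), Cd2ap stays near 0, and every interval in Gsdmd-/- against PIL covers 0.

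Only the Cdkn1c calls held in all 17 alternative analyses of both comparisons with saline. In PIL against saline, Ptpro was called in 14 of 17 alternatives, Synpo in 11 and Nphs1 in 9. A single library changed these counts, since 1 of the 8 members was called without saline replicate 1 or without PIL replicate 2, and 2 without any one Gsdmd-/- library, which enters that comparison through the shared estimate of the spread, the scaling and the filter. Nphs1 and Synpo in Gsdmd-/- against saline were each called in 12 of 17 alternatives. There 1 member was called without saline replicate 1 or any one Gsdmd-/- library, and 5 without saline replicate 3. Podxl (0.92, edgeR adjusted p = 0.0419) and Ptpro (0.98, adjusted p = 0.0105) then also passed. Saline replicate 3 had the highest sum of fat markers (253 CPM) and the most Y-linked counts (3077), and the part of either was not tested.

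Within the PIL and saline groups, most members varied together from library to library. This was less so in the Gsdmd-/- group, where replicate 3 was highest for 4 members and lowest for 2, Nphs1 and Cd2ap. PIL replicate 3 was the highest PIL library for 6 of the 8 members and PIL replicate 1 the lowest for 5. Cdkn1c and Ptpro were instead lowest in PIL replicate 3, although Ptpro was nearly level at 30.8, 29.5 and 29.3 CPM in the PIL libraries. PIL replicate 3 also had the lowest immune marker sum of the PIL libraries, 288 CPM, against 757 CPM or more in replicates 1 and 2. The part of immune cells in the levels of Cdkn1c and Ptpro was not tested. Saline replicate 3 was the highest saline library for 7 members and the lowest for Cdkn1c. The summed CPM of the 8 was 649, 699 and 694 in Gsdmd-/- libraries, 503, 572 and 670 in PIL libraries and 392, 383 and 543 in saline libraries, with Podxl making up 40.9% to 48.7% of the sum in each library. The Gsdmd-/- group had the lowest coefficient of variation of the 3 groups for 6 of the 8 members, all but Cdkn1c and Ptpro. It was 3.38% for Nphs1 and 5.18% for Podxl in Gsdmd-/- libraries, against 19.0% and 21.7% in PIL libraries and 28.0% and 26.2% in saline libraries. For Ptpro it was lowest in PIL libraries, at 2.76%, and for Cdkn1c in saline libraries, at 9.28%. The spread was not tested between groups.

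The balance among the members also differed. Cd2ap made up 18.0% to 20.2% of the member sum in Gsdmd-/- libraries and 18.2% to 21.2% in PIL libraries, against 25.2% to 30.2% in saline libraries, without overlap. Cdkn1c made up 3.64% to 4.32% in Gsdmd-/- libraries and 3.25% to 6.15% in PIL libraries, against 1.58% to 2.63% in saline libraries. Wt1 made up 2.40% to 2.47% in Gsdmd-/- libraries, just above every other library. Its share was 1.72% to 2.36% in PIL libraries and 1.99% to 2.38% in saline libraries, which overlapped. The members thus changed unequally, with Cd2ap and Cdkn1c at the ends.

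**Figure D3:**
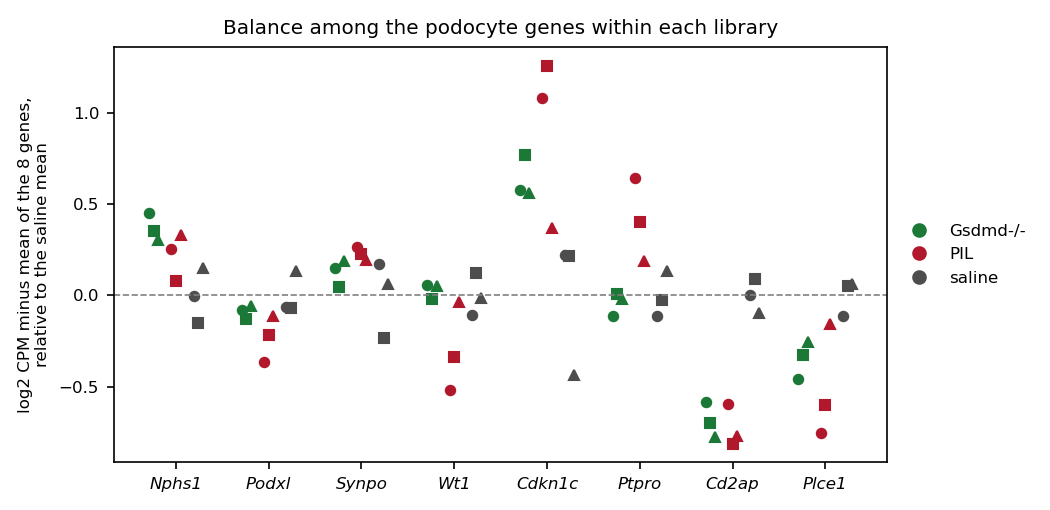
Log2 CPM of each podocyte gene minus the mean of the 8 in the same library, set relative to the saline mean of that gene (vertical axis), for each Gsdmd-/-, PIL and saline library (replicates 1, 2 and 3 as circles, squares and triangles). Cd2ap lies below its saline values in all 6 other libraries and Cdkn1c above them.

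Beyond the members, 4 podocyte lists held 58 further genes, some of them also made by other kidney cells. Of the 58, 55 were tested. In PIL against saline 7 were higher and none lower (4.48% of all genes were higher), with a median log2 fold change of 0.28. Against saline, 2 were higher in Gsdmd-/- kidneys and none lower (1.55% of all genes were higher), with a median of 0.18, and in Gsdmd-/- against PIL none was called, with a median of 0.07.

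Among 14 tested partners of the slit diaphragm, 2 were higher in PIL than in saline kidneys, among them Kirrel. Kirrel, which encodes the nephrin-binding protein NEPH1, was at 18.7, 17.2 and 15.2 CPM in Gsdmd-/- libraries, 29.3, 28.0 and 24.7 CPM in PIL libraries and 14.8, 13.5 and 16.8 CPM in saline libraries. It rose in PIL against saline (0.86, edgeR adjusted p = 0.0105), and in Gsdmd-/- against PIL its log2 fold change was -0.68 (adjusted p = 0.127) with no overlap. Pard3, a polarity protein, had the lowest value of the list in PIL against saline (-0.51, edgeR adjusted p = 0.0518), and the scaffold Magi1 and the scaffold Iqgap1 did not pass in Gsdmd-/- against PIL (0.35 and -0.30). Crb2, a polarity protein of the slit, was at 1.13 (edgeR adjusted p = 0.191) and Magi1 at 0.40 (adjusted p = 0.104) in Gsdmd-/- against saline. Kirrel2 and Kirrel3 had at most 7 and 25 counts in any library and were not tested.

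Of 18 tested genes of the podocyte cytoskeleton and its adhesion to the basement membrane, 2 were higher in PIL than in saline kidneys. They were the intermediate filament genes Nes (nestin, 1.54, edgeR adjusted p = 0.00965) and Vim (vimentin, 1.78, adjusted p = 0.0367). Vim is made by mesangial, endothelial and immune cells as well. Vim was at 72.7, 68.9 and 67.0 CPM in Gsdmd-/- libraries, 341, 199 and 74.6 CPM in PIL libraries and 57.3, 64.8 and 56.4 CPM in saline libraries, highest in the PIL libraries with the most immune markers. Nes was at 43.7, 52.1 and 54.5 CPM in Gsdmd-/- libraries, 96.8, 69.1 and 52.1 CPM in PIL libraries and 21.2, 21.5 and 32.1 CPM in saline libraries. Like Vim, Nes was highest in the PIL libraries with the most immune markers. In Gsdmd-/- against saline the log2 fold change of Nes was 1.01 (edgeR adjusted p = 0.0623). Neither Inf2, a formin (1.02 in PIL against saline and -0.89 in Gsdmd-/- against PIL), nor the tetraspanin Cd151 (-0.43 in Gsdmd-/- against PIL) passed. The podocyte protein dendrin, encoded by Ddn, was at 19.0, 20.3 and 19.9 CPM in Gsdmd-/- libraries, 10.2, 10.2 and 18.2 CPM in PIL libraries and 11.2, 8.74 and 12.2 CPM in saline libraries, with a log2 fold change of 0.88 in Gsdmd-/- against saline (edgeR adjusted p = 0.0982). The myosin gene Myo1e was at 0.32 in the same comparison (edgeR adjusted p = 0.267). Ilk, with at most 4 counts, was not tested.

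Of 7 podocyte transcription factors, 2 were higher in PIL than in saline kidneys, among them Tcf21 (0.81, edgeR adjusted p = 0.0201). Tcf21, which in the glomerulus marks podocytes and is also made by stromal cells, was at 30.0, 26.8 and 20.4 CPM in Gsdmd-/- libraries, 36.1, 28.1 and 33.6 CPM in PIL libraries and 18.2, 18.1 and 19.3 CPM in saline libraries. Foxc2 (0.75 in PIL and 0.47 in Gsdmd-/- against saline), Lmx1b (1.05 in Gsdmd-/- against PIL) and Dach1 (0.58 in Gsdmd-/- against PIL) did not pass.

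Among 16 other podocyte-enriched genes, Sulf1, an extracellular sulfatase, was higher in PIL than in saline kidneys (1.77, edgeR adjusted p = 0.0215). Sulf1 was at 8.43, 10.8 and 7.29 CPM in Gsdmd-/- libraries, 22.7, 19.3 and 10.1 CPM in PIL libraries and 3.38, 4.70 and 7.18 CPM in saline libraries. It too was highest in the PIL libraries with the most immune markers. Podoplanin (Pdpn) did not pass in PIL against saline (1.09, edgeR adjusted p = 0.0633) or in Gsdmd-/- against PIL (-0.88, adjusted p = 0.184), nor did the guidance receptor Robo2 (0.69 in PIL and 0.80 in Gsdmd-/- against saline). The matrix gene Npnt was at 0.81 and the peptidase gene Mme, which proximal tubules also express, at 1.23 in Gsdmd-/- against saline (edgeR adjusted p = 0.144 and 0.145). Mme was at 0.79 in Gsdmd-/- against PIL.

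The change in Cdkn1c was set beside its functional relatives and its neighbours in the imprinted cluster on distal chromosome 7. None of 5 tested CDK inhibitors was called in any comparison, a count near the share of all genes called (4.48% higher and 3.14% lower in PIL against saline, 1.55% and 1.46% in Gsdmd-/- against saline, 0% in Gsdmd-/- against PIL), so nothing particular to Cdkn1c is read from it. The closest relative, Cdkn1b (p27), was at 61.3, 57.5 and 49.6 CPM in Gsdmd-/- libraries, 30.9, 43.4 and 51.3 CPM in PIL libraries and 52.1, 73.5 and 57.6 CPM in saline libraries, with a log2 fold change of -0.55 in PIL against saline (edgeR adjusted p = 0.116) and 0.43 in Gsdmd-/- against PIL (adjusted p = 0.252). Cdkn1a (p21) was at -0.93 and Cdkn2d at -0.45 in Gsdmd-/- against PIL, Cdkn2c at 0.48 in PIL against saline, and in Gsdmd-/- against saline Cdkn2c was at 0.32 and Cdkn2d at -0.35, none of which passed. Cdkn2b was at 2.74, 0.530 and 1.07 CPM in Gsdmd-/- libraries, 4.26, 3.16 and 1.20 CPM in PIL libraries and 2.57, 13.5 and 1.08 CPM in saline libraries, with saline replicate 2 far above the other 8 libraries. Its log2 fold changes with that library included, -1.97 in Gsdmd-/- and -0.97 in PIL against saline, did not pass. Cdkn2a, with at most 14 counts, was not tested.

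None of 7 tested imprinted neighbours was called either, again near those shares. Slc22a18 was at 409, 500 and 465 CPM in Gsdmd-/- libraries, 260, 365 and 374 CPM in PIL libraries and 444, 380 and 455 CPM in saline libraries, a log2 fold change of -0.36 in PIL against saline (edgeR adjusted p = 0.195). Tssc4 was at 0.53 in PIL against saline and -0.45 in Gsdmd-/- against PIL, Phlda2 at -0.26 in Gsdmd-/- against PIL, and Nap1l4 at 0.16 and Cd81 at 0.15 in Gsdmd-/- against saline. The growth factor gene Igf2 was at 2.81, 0.682 and 6.22 CPM in Gsdmd-/- libraries and 0.224, 2.21 and 4.36 CPM in PIL libraries, and had 0 counts in each saline library, where a count of 0 allows up to 3 counts. It did not pass (edgeR adjusted p = 0.0643 in PIL and 0.0896 in Gsdmd-/- against saline).

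Some markers of other kidney cells also differed between groups, and their part in the results was not tested. In PIL against saline, 4 of 9 mesangial and pericyte markers, 2 of 12 glomerular endothelial markers and 7 of 11 immune markers were higher, none of these 3 lists had a lower gene, and of 13 proximal tubule markers 1 was higher and 2 were lower, beside 4.48% of all genes higher and 3.14% lower. Against saline, Gsdmd-/- kidneys had no called change in the mesangial, endothelial or immune markers, and 1 proximal tubule marker was higher and 2 lower, beside 1.55% of all genes higher and 1.46% lower. Mesangial markers summed to 415 to 474 CPM in Gsdmd-/- libraries, 699, 612 and 487 CPM in PIL libraries and 361 to 456 CPM in saline libraries. Endothelial markers summed to 813 to 963 CPM in Gsdmd-/- libraries, 870 to 1078 CPM in PIL libraries and 672 to 831 CPM in saline libraries. Proximal tubule markers summed to 20551 to 23268 CPM in Gsdmd-/- libraries, 10737, 15328 and 20503 CPM in PIL libraries and 17849 to 24828 CPM in saline libraries. Distal nephron and collecting duct markers summed to 5777 to 6427, then 3171, 4563 and 6772, and 4705 to 6446 CPM in the same groups. From PIL replicate 1 to 3 the podocyte sum rose (503, 572 and 670 CPM), as did both tubule sums, while the mesangial and immune sums fell. No marker in these lists was at 0 throughout a group.

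**Figure D4:**
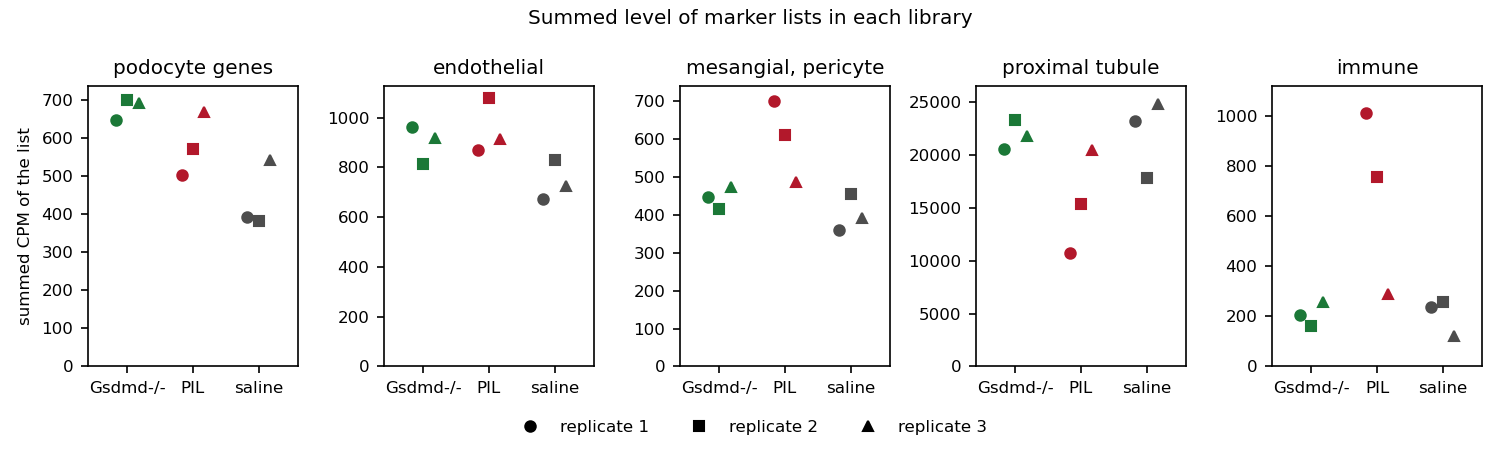
Summed CPM of the 8 podocyte genes and of 4 marker lists (vertical axes, each starting at 0) in each Gsdmd-/-, PIL and saline library, with replicates 1, 2 and 3 as circles, squares and triangles. The immune sum is highest in PIL replicates 1 and 2 (1015 and 757 CPM), while the podocyte sum is lowest of the PIL libraries in replicate 1 (503 CPM).

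The genes most like the 8 members over the 9 libraries were those with the smallest root-mean-square difference between their centred log2 CPM and the mean of the members. They were Xpnpep1 (0.09), which encodes an aminopeptidase, the phosphodiesterase gene Pde4b (0.09), Cpeb1 (0.11), an RNA-binding protein gene, the integrin gene Itga1 (0.13) and Fpgs (0.13), which encodes folylpolyglutamate synthase. The median over 14061 other genes was 0.47. Among the members themselves the difference was smallest for Podxl (0.13) and Synpo (0.14) and largest for Cdkn1c (0.48) and Cd2ap (0.34). Each member is part of the mean it is set against, which lowers its difference, so these values are not comparable with those of other genes. Even so, Cdkn1c was not below the median of the other genes.

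Other annotated genes overlap 4 of the 8 members in GENCODE M21, where all 8 have the same start and end as in the deposited table. Nphs1 shares 3428 bases with the antisense gene Nphs1os, Cdkn1c shares 892 bases with the antisense gene Gm44732, Plce1 shares 3886 bases with the antisense gene Gm28991, and Ptpro holds the intronic gene Gm44258 on its own strand. The shared bases were taken over whole genes, introns included, and no source used here gives the strand setting of the counting. Whether any reads from these partners were counted for Nphs1, Cdkn1c or Plce1 was not tested.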

How the data were processed

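Kidney RNA was extracted by the authors in TRIzol and read from both ends on a Novaseq6000 instrument, and reads were aligned to mm10 and counted with HTSeq. HISAT2 and TopHat2 are both named for alignment. Versions, annotation and strand setting are not given in the sources used here. The counts deposited by the authors are raw reads per gene, and the FPKM deposited by the authors are these counts scaled by gene length and library size.

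Counts were filtered with filterByExpr, scaled by TMM and tested with edgeR 4.0.16 (R 4.3.3) by the robust quasi-likelihood F-test in 1 fit over 9 libraries, with 6 residual degrees of freedom. P-values were Benjamini-Hochberg adjusted over 14069 genes. CPM used TMM-scaled library sizes, and log2 CPM a prior count of 2. Intervals are at the 95% level. The fitting script was tested on simulated data.

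The members and lists were chosen with earlier results of these data known. Named were all members, up to 3 genes with the lowest p per list and comparison in the podocyte, CDK inhibitor and imprinted lists, and the 5 genes most like the members. Some genes that this rule names are not reported here. Alternatives tried were upper-quartile and RLE scaling, leaving out the filter, at least 10 counts in every library, a replicate block, DESeq2 1.42.0, limma-voom (limma 3.58.1) with sample weights, only the 6 libraries compared, and each library left out. Deviations of libraries in different groups had r from -0.14 to 0.29 over 9 same-numbered pairs and from -0.34 to 0.25 over 18 other pairs. The highest r was that of saline replicate 3 with PIL replicate 3. The ranges overlapped, so numbers were not taken as pairs. Promoter sequences are from RefSeq, GRCm38.p6.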

Additional observations from a re-analysis of the deposited data

How the results depend on the processing

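Over 17 alternatives and 24 member fold changes, 358 values kept direction and side of the threshold, 21 gained a call, 27 lost one and 2 turned direction, Plce1 in PIL against saline without PIL replicate 3 and Cdkn1c in Gsdmd-/- against PIL without PIL replicate 2, neither of them called. With 1 library left out their log2 fold changes ran from -0.19 to 0.33 for Plce1 and from -0.24 to 0.089 for Cdkn1c. In PIL against saline, 4 members and 1072 genes were called, against 2285 genes in DESeq2, 6 members and 6271 genes in limma-voom with sample weights, and 1 member and 130 genes with only the 6 libraries. Leaving out 1 library gave 1 to 4 members and 226 (without PIL replicate 2) to 3684 genes (without PIL replicate 3). Upper-quartile scaling gave 826 higher and 382 lower genes, against 630 and 442. Between Gsdmd-/- and PIL, no member and no gene was called (2942 genes had an unadjusted p under 0.05), against 7 members (5 higher, 2 lower) and 6448 genes in limma-voom, 878 genes in DESeq2, 3 with the replicate block and 1 with only the 6 libraries, and 0 to 1 members and 0 to 3204 genes (without PIL replicate 3) with 1 library left out. Between Gsdmd-/- and saline, 3 members and 423 genes were called, against 6 members and 909 genes in DESeq2, 6 members and 2202 genes in limma-voom and 766 genes with only the 6 libraries, and 1 to 5 members and 105 to 705 genes with 1 library left out. The causes were not tested. With the replicate block, 4 members and 962 genes were called in PIL against saline and 3 members and 347 genes in Gsdmd-/- against saline. No member call changed. Correlations of same-numbered libraries overlapped those of differently numbered ones. No scaling moved the median of all genes by more than 0.06 on the log2 scale. Members had 92 to 5051 counts per library, with 3 libraries a group, and what limited the precision was not tested.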
